A study of Saccharomyces cerevisiae with 2 samples.

Results

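The genes of the proteasome were examined in RNA bound to Cbc2, the small subunit of the nuclear cap-binding complex, in meiotic yeast with and without Trf4. They were taken by name: 7 genes of each ring type of the 20S core (SCL1, PRE1 to PRE10 and PUP1 to PUP3), the RPT1 to RPT6 ATPase genes, and RPN1 to RPN14, 34 genes of the 6698 ORFs in the deposited table. Of these, 32 encode subunits, RPN14 encodes an assembly chaperone and RPN4 encodes the transcription activator of the family. Trf4 is the poly(A) polymerase of the TRAMP complex, which hands nuclear RNAs to the exosome, and its substrates include CUTs, the cryptic unstable transcripts.

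Both libraries came from diploid SK1 cells at 6 h of meiosis, homozygous for CBC2-TAP-TRP1 and carrying ho::LYS2, lys2, ura3, leu2::hisG, his3::hisG and trp1::hisG. Wild type was TRF4, and the trf4Δ strain was homozygous for trf4::NatMX6. There was 1 library per genotype, so no difference has a replicate check and no p-value was computed, and each library was run on its own lane from a culture started at its own cell density, neither of which can be told apart from genotype. Read numbers below are those of trf4Δ as deposited and those of wild type after the scaling to equal totals (2.21e+07 segment reads in wild type and 2.97e+07 in trf4Δ before it), and the log2 difference is trf4Δ minus wild type. Each interval is an exact 95% interval that covers counting error only, since reads amplified by PCR are not independent molecules. Values for parts of an ORF and for windows around it are sums over 100 bp segments, which can exceed the count of the ORF. Such sums are not numbers of separate reads, so their intervals may be too narrow even for counting error. TRF4 itself, which the table names PAP2, was left with 1 read in trf4Δ where wild type had 465, a difference of at least 155-fold against a floor of 3 reads in that library. All 15 meiotic marker genes examined passed the read minimum, as did 6246 of the 6698 ORFs. Their wild-type levels ran from 162 reads per kb for CLB1 to 20485 for DMC1. The purification measures a share of the bound RNA, so less RNA in the cell, less of it bound to Cbc2 and fewer cells with the RNA cannot be told apart.

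The proteasome degrades proteins that carry ubiquitin chains. Its 20S core is a barrel of stacked alpha and beta rings, with the proteolytic sites on the inner face of the beta rings. The 19S particle caps the barrel: its base holds a ring of ATPases that unfold substrates and open the core, and its lid removes the ubiquitin chain. In meiosis the proteasome acts on the targets of the anaphase-promoting complex, and it has been found on chromosome axes. In yeast the genes are controlled together by Rpn4, a short-lived activator that the proteasome itself degrades and that binds the proteasome-associated control element, GGTGGCAAA.

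The members were chosen by name, and most shared this element. In the 300 bp before the start codon, the letters GGTGGCAAA were found on either strand for 27 of 34 members, against 73 of 6007 protein-coding genes (1.22%) in the reference genome, R64 of strain S288C from RefSeq. The shorter core GTGGCAA, which lies inside the 9-letter element, was found for 31 members and for 295 genes (4.91%). The first base of the element lay between 84 and 183 bases before the start codon (median 120). It lay on the strand of the gene for 19 members and on the other strand for 8. RPN4 itself, RPN14 and RPN13 had neither form in this window, and PRE5, PUP1, RPN10 and RPN8 had the core only. SK1 was not read for this, so the letters are those of S288C.

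The stretches below show the element in members of the core, the base and the lid, including PRE3 and RPN8, with the most reads and the largest difference, and PRE9 and PRE1, with the smallest differences. They were chosen with the values known. Each is 60 bases, 5′ to 3′ in the direction of the gene, with the element in capitals. In R64 they lie at chrX:435020-435079 on the plus strand for PRE3, chrII:141135-141194 on the plus strand for PRE7, chrIV:286774-286833 on the minus strand for RPN6, chrXI:174033-174092 on the plus strand for RPT1, chrXV:817068-817127 on the minus strand for RPN8, chrVII:761208-761267 on the plus strand for PRE9 and chrV:177668-177727 on the plus strand for PRE1.
PRE3: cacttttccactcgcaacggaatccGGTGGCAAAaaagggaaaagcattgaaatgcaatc
PRE7: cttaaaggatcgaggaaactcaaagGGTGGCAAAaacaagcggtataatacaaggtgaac
RPN6: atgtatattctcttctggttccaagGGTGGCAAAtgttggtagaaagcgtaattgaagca
RPT1: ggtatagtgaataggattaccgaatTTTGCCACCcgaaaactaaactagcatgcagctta
RPN8: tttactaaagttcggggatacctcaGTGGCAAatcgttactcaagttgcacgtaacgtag
PRE9: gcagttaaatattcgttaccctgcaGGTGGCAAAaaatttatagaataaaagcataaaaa
PRE1: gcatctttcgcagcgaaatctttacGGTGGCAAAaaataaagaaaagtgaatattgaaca
At RPT1 the capitals are the reverse complement, since the element is on the other strand, and at RPN8 they are the core. PRE9 and PRE1, whose read numbers differed least from wild type, carried the same 9 letters as PRE3 and PRE7, whose read numbers differed among the most. Members with the 9-letter element had a median log2 difference of -1.76 (n = 27) and those without had one of -1.89 (n = 7). By the core the order was the other way, with -1.81 for members with it (n = 31) and -1.68 for those without (n = 3).

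Transcripts of the proteasome were abundant among Cbc2-associated RNAs. Levels are compared between genes as reads per kb of ORF. In wild type 33 members were above the median ORF (809 reads per kb) and in trf4Δ 29 were above its median (560 reads per kb). The members had a median of 7065 reads per kb in wild type and 2028 in trf4Δ. When ORFs were ordered by their mean log2 level over both libraries, 26 of the 34 fell in the highest 2 of 10 classes of equal size. PRE3 had the highest level in both libraries, with 33512 and 6715 reads per kb, and RPN14 the lowest, with 595 and 186. Over the 34 genes the log2 levels of the libraries had a Pearson's r of 0.93, a description across genes that share the same libraries.

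**Figure D1:**
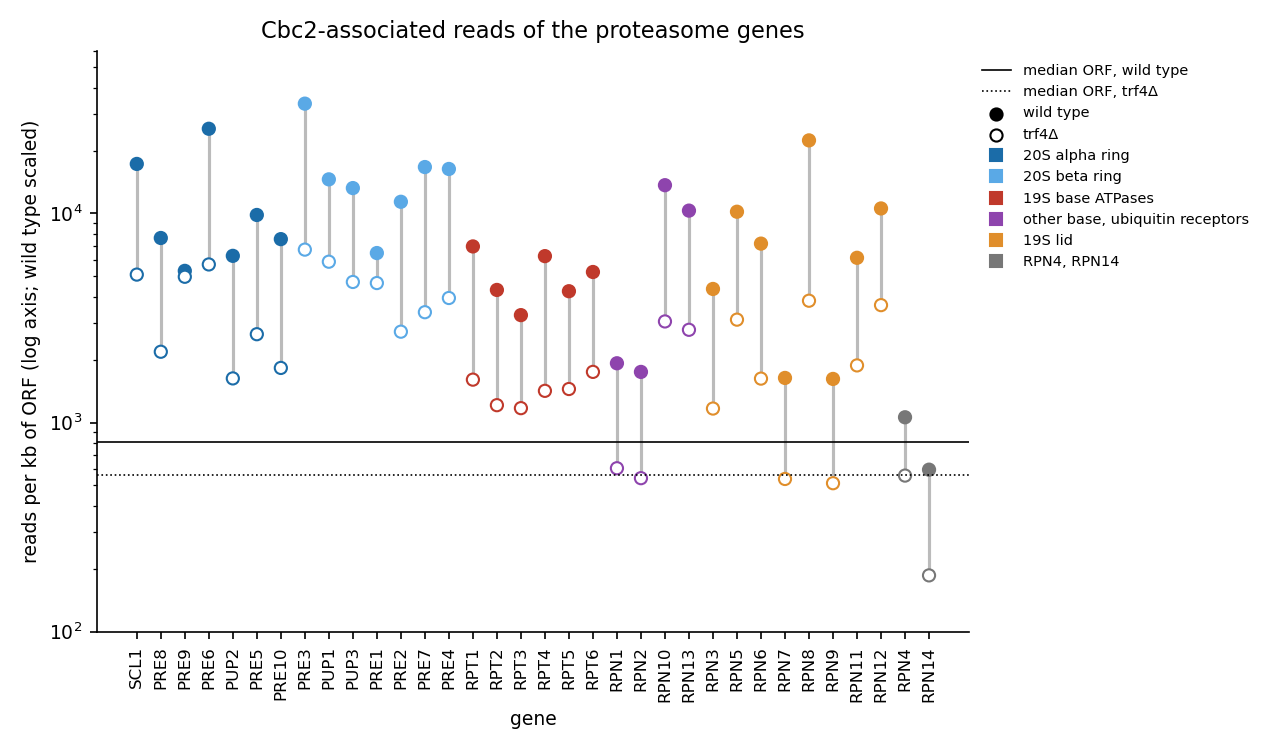
Reads per kb of ORF (log axis) for each of the 34 genes, with wild type as filled and trf4Δ as open circles joined by a line, and the medians of all ORFs as horizontal lines. The highest pair is PRE3 (33512 and 6715 reads per kb), the lowest is RPN14 (595 and 186), and the shortest line is that of PRE9.

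Reads on the proteasome genes were lower in trf4Δ than in wild type by more than those on most ORFs. The median log2 difference of the 34 members was -1.78, against -0.97 for the 6246 ORFs that passed the read minimum of log2 reads above 6 in at least 1 library, so it lay 0.81 below the median ORF. All 34 members passed the minimum, with between 555 and 19040 wild-type reads before scaling and between 233 and 5130 trf4Δ reads. The members took 1.82% of all ORF reads in wild type and 0.724% in trf4Δ. More than 2-fold lower were 31 of 34 members, where 49.0% of all ORFs were. More than 4-fold lower were 11 of 34, where 10.6% of all ORFs were. No member was more than 2-fold higher (15.3% of ORFs) or more than 4-fold higher (8.09% of ORFs).

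Measured from the median ORF, 31 members were lower, and the whole counting interval of each of those 31 lay below it. Of the 34, 11 were more than 2-fold below the median ORF (11.6% of ORFs) and none was more than 2-fold above it (27.2% of ORFs). The 3 that were not below it were PRE9, PRE1 and RPN4. Without these 3, the other 31 members ran from -2.55 to -1.31, with an SD of 0.29 on the log2 scale, while the SD over all ORFs was 1.52.

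The members differed from the average ORF in other measures as well, and these values stand beside the difference without their part in it having been tested. No member ORF touched a 100 bp segment more than 4-fold higher in trf4Δ, whereas 28.4% of ORFs did. Among the 4475 ORFs with no such segment, the median log2 difference was -1.34, 14.5% were more than 4-fold lower and 66.1% more than 2-fold lower. ORFs of high level were lower in trf4Δ too: in the highest of those 10 classes, which holds 16 members, the median was -1.43 and 25.9% were more than 4-fold lower. In the next class, which holds 10 members, the median was -0.99 and 16.5% were more than 4-fold lower. Leaving out ORFs that overlap a CUT, the median of the highest class was -1.65.

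**Figure D2:**
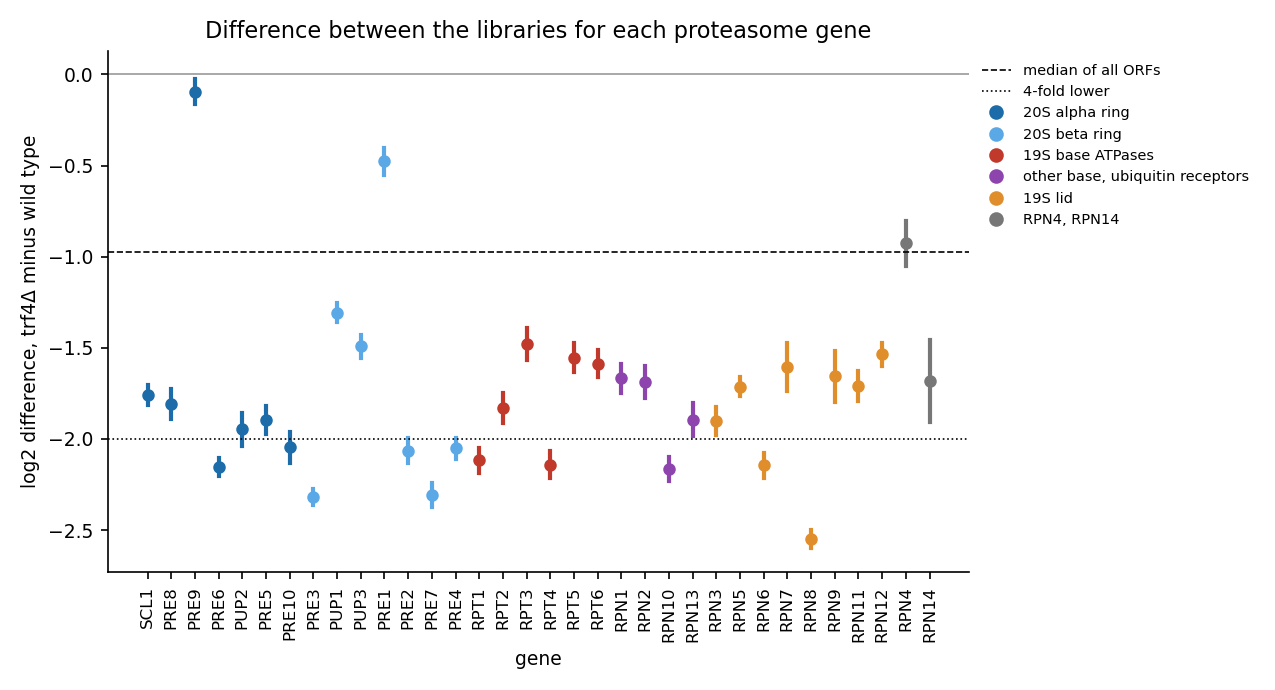
Log2 difference between the libraries (vertical axis, trf4Δ minus wild type) for each of the 34 genes, coloured by subcomplex, with exact 95% intervals for counting error as bars. Most points lie between -1.31 and -2.55, PRE9 (-0.09), PRE1 (-0.48) and RPN4 (-0.93) lie above the dashed line at the median of all ORFs (-0.97), and 11 points lie below the dotted line at 4-fold lower.

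The alpha rings form the gate of the core. Their 7 genes had a median log2 difference of -1.89, and 6 of 7 were more than 2-fold lower, beside 49.0% of all ORFs. PRE6, the alpha4 subunit, had 19441 reads in wild type and 4363 in trf4Δ, the largest difference of the ring (-2.16, interval -2.20 to -2.11). PRE10, the alpha7 subunit, had 6535 and 1582 reads (-2.05). Both were more than 4-fold lower. SCL1, the alpha1 subunit, had 13095 and 3871 reads (-1.76). PRE8 (alpha2) had 5747 and 1642 reads, PUP2 (alpha5) had 4910 and 1273, and PRE5 (alpha6) had 6933 and 1865. These last 3 lay close together in their differences, at -1.81, -1.95 and -1.89, between the 2-fold and 4-fold marks.

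PRE9 stood apart from the ring. It encodes alpha3, the one subunit of the core that yeast can live without. It had 4130 reads in wild type and 3869 in trf4Δ, a log2 difference of -0.09 (interval -0.16 to -0.03), which became 0.88 when the median ORF was set to 0 and 0.02 when U1 snRNA reads were left out of the totals. In reads per kb it was the lowest of its ring in wild type (5315) but among the 5 highest of all members in trf4Δ (4979).

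The beta rings carry the proteolytic sites. They had the lowest median of the subcomplexes, -2.05, and 4 of their 7 genes were more than 4-fold lower, beside 10.6% of all ORFs. PRE3 encodes beta1, with the caspase-like site, and had 25604 reads in wild type and 5130 in trf4Δ (-2.32, interval -2.36 to -2.27). It was the one member whose coding sequence is split by an intron in R64. PRE2 encodes beta5, with the chymotrypsin-like site, and had 9826 and 2350 reads (-2.06). PUP1 encodes beta2, with the trypsin-like site, and had 11444 and 4620 reads (-1.31), the smallest difference of the members outside the 3 named above. The genes of the 3 proteolytic subunits thus lay far apart within the range of the other members.

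Of the structural subunits of the beta ring, PRE7 (beta6) had 12104 reads in wild type and 2447 in trf4Δ (-2.31), and PRE4 (beta7) had 13075 and 3157 (-2.05). PUP3 (beta3) had 8173 and 2906 reads (-1.49). PRE1 (beta4) was the exception, with 3861 and 2774 reads, a log2 difference of -0.48 (interval -0.55 to -0.40) that became 0.49 when the median ORF was set to 0. As with PRE9, the level of PRE1 was the lowest of its ring in wild type (6467 reads per kb) and not in trf4Δ (4647 reads per kb).

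The 6 ATPases of the base were the most even group in level. In wild type their levels ran from 3264 reads per kb (RPT3) to 6955 (RPT1), a 2.13-fold range, and in trf4Δ from 1172 (RPT3) to 1747 (RPT6), a 1.49-fold range. The SD of log2 reads per kb was 0.40 and 0.22, against 1.14 and 1.06 over the 32 subunit genes. All 6 were more than 2-fold lower in trf4Δ, beside 49.0% of all ORFs, with a median of -1.71. RPT1 had 9765 reads in wild type and 2252 in trf4Δ (-2.12), and RPT4 had 8214 and 1863 (-2.14), both more than 4-fold lower. RPT2, whose product takes part in opening the gate of the core, had 5660 and 1591 reads (-1.83). The differences of the other 3 were smaller and close to each other: RPT3 had 4201 and 1508 reads (-1.48), RPT5 had 5543 and 1888 (-1.55), and RPT6 had 6393 and 2128 (-1.59). RPT1 was the one member overlapped by another ORF, YKL145W-A (-1.91), and without strand their reads cannot be told apart.

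The other base subunits and ubiquitin receptors varied more in level than in difference. The SD of their log2 reads per kb in wild type was 1.57 and that of their log2 difference 0.23. This was not particular to them, since these SDs were 1.32 and 0.34 for the lid and 2.01 and 1.52 over all ORFs. RPN1 and RPN2 encode the large scaffolds of the base, and RPN1 also binds ubiquitin and delivery factors. RPN1 had 5729 reads in wild type and 1803 in trf4Δ (-1.67), and RPN2 had 4957 and 1538 (-1.69). The intrinsic ubiquitin receptors RPN10 and RPN13 had higher levels per kb, at 13652 and 10318 reads per kb in wild type. RPN1 and RPN2 were at 1921 and 1747 there. In reads, RPN10 had 11017 in wild type and 2457 in trf4Δ (-2.16, more than 4-fold lower), and RPN13 had 4860 and 1308 (-1.89). Per kb, RPN10 was 7.82-fold above RPN2 in wild type and 5.62-fold above it in trf4Δ.

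The lid held the largest difference of the family. RPN8, the partner of the deubiquitinase Rpn11, had 22742 reads in wild type and 3890 in trf4Δ, 5.85-fold lower (-2.55, interval -2.60 to -2.50). RPN11 itself had 5652 and 1728 reads (-1.71). RPN6, a scaffold that contacts both core and base, had 9362 and 2117 reads (-2.14, more than 4-fold lower). The genes of the dimer that cuts ubiquitin chains from substrates therefore differed from each other by more than their counting intervals, since that of RPN11 ran from -1.79 to -1.63.

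All 8 lid genes were more than 2-fold lower in trf4Δ, beside 49.0% of all ORFs. RPN3, a structural subunit, had 6845 reads in wild type and 1834 in trf4Δ (-1.90). RPN5, which also serves in the COP9 signalosome of yeast, had 13637 and 4155 reads (-1.71). RPN12, which joins the lid last, had 8718 and 3006 (-1.54). RPN7 and RPN9, a subunit yeast can live without, had the fewest reads of the subunit genes relative to length: RPN7 had 2109 and 693 (-1.61), and RPN9 had 1911 and 606 (-1.66). The level of the lid genes spread over a 13.8-fold range in wild type and a 7.46-fold range in trf4Δ.

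RPN4 and RPN14 were the members of lowest level in wild type. RPN4 had 1692 reads in wild type and 890 in trf4Δ (-0.93, interval -1.05 to -0.80), so its interval included the median ORF at -0.97, and its value was 0.05 with the median ORF set to 0. RPN14, which chaperones the assembly of the ATPase ring, had 746 and 233 reads (-1.68, interval -1.91 to -1.46). The value of the activator was thus nearer to that of the median ORF than the value of any other member.

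The 3 members nearest to wild type were examined along their length in 100 bp segments. PRE9 (chromosome VII, 761397 to 762173 in the SGD1.01 coordinates of the files) was lower in trf4Δ at its 5′ end and higher at its 3′ end. Over the first of 3 equal parts of the ORF it had 2517 reads in wild type and 671 in trf4Δ (-1.91, interval -2.04 to -1.78). Over the last part it had 1712 and 3764 (1.14, interval 1.04 to 1.23). These are sums over segments, which together exceed the 3869 trf4Δ reads of the whole ORF, so the intervals may be too narrow. The segment with the largest excess in trf4Δ, centred 653.5 bp from the start codon, had 641 reads in wild type and 1793 in trf4Δ. The excess ended near the stop codon, since the segment centred at 853.5 bp had 63.1 and 24 reads.

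PRE1 (chromosome V, 177834 to 178430) showed the same shape within the ORF, but not beyond it. Over the first part it had 1647 reads in wild type and 585 in trf4Δ (-1.49, interval -1.64 to -1.35). Over the last part it had 1428 and 1876 (0.39, interval 0.28 to 0.50). In the 300 bp beyond the stop codon the log2 difference was 1.08 at PRE1, with 347 wild-type reads before scaling and 985 in trf4Δ. At PRE9 that window was at -1.60. Farther from PRE1, the segment centred 916.5 bp from the start had 63 reads in trf4Δ and none in wild type. With the median ORF set to 0 the last parts of both genes rose further and their first parts stayed lower in trf4Δ. The protocol did not keep strand, so whether these 3′ reads came from the mRNA, from a transcript on the other strand or from one that starts within the gene cannot be told apart.

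RPN4 (chromosome IV, 415110 to 416705) had an excess at its 5′ end. The segments centred at -145.5 and -45.5 bp from the start codon had 110 and 96.7 reads in wild type and 349 and 285 in trf4Δ. The first segment inside the ORF had 218 and 228 reads, and the 14 segments after it were each lower in trf4Δ, with log2 differences from -1.64 to -0.54. The last segment had 73.9 and 78 reads. Over the 3 parts of the ORF the log2 differences were -0.95, -1.34 and -0.60 (interval of the last -0.83 to -0.37), so both end parts were nearer to wild type than the middle.

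**Figure D3:**
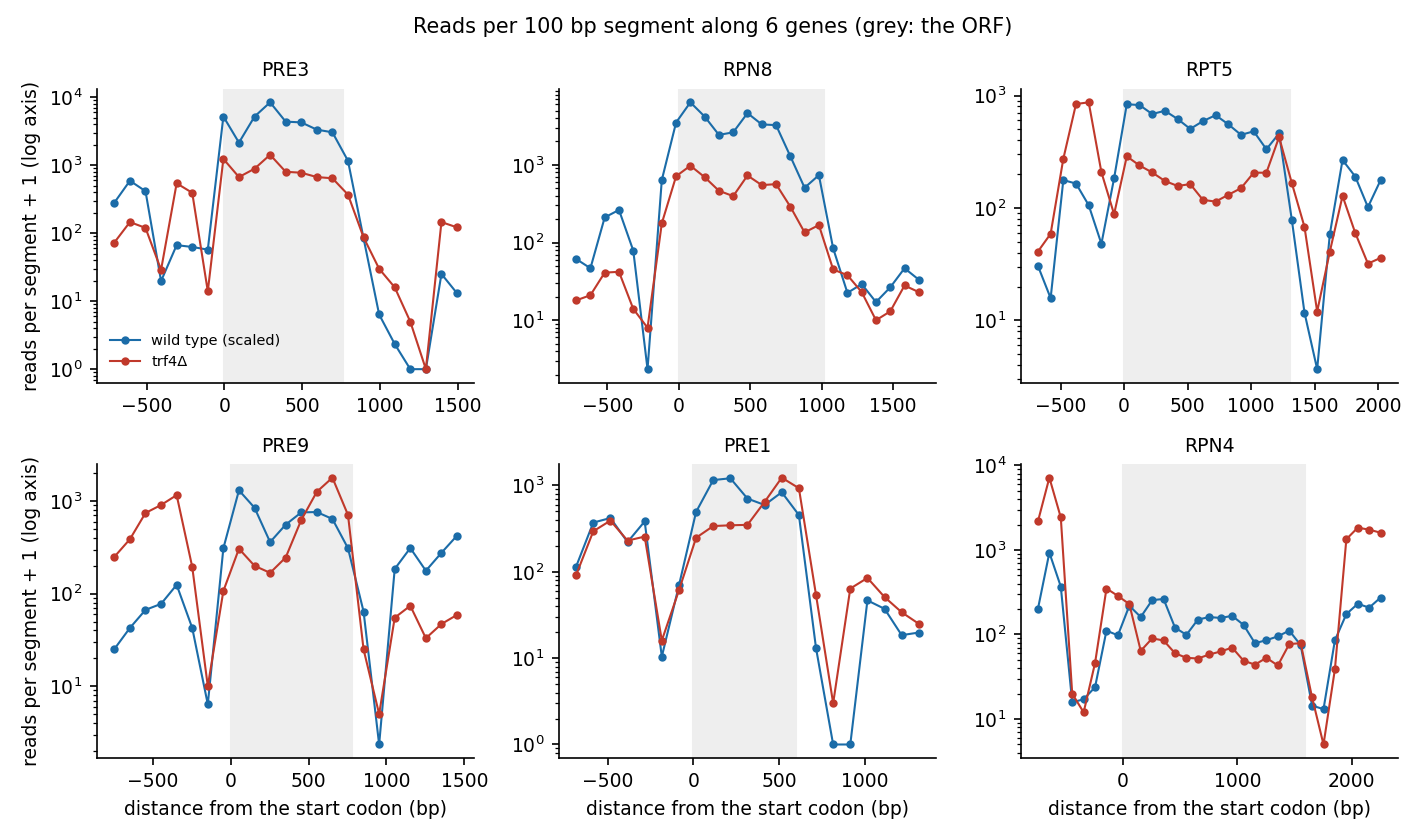
Reads per 100 bp segment plus 1 (log axis) against the distance from the start codon in bp, for wild type (scaled) and trf4Δ, with the ORF shaded. PRE3 and RPN8 are lower in trf4Δ across the whole ORF, RPT5 up to its last segments, PRE9 and PRE1 over the 5′ part with the lines crossing before the stop codon, and RPN4 everywhere but at its 5′ and 3′ ends.

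From the start codon to the midpoint of the ORF the spread within the family was smaller. All 34 members were more than 2-fold lower there, where 63.3% of the 5176 ORFs of at least 450 bp with reads there were, and 14 were more than 4-fold lower, where 15.5% were. The median was -1.90, against -1.31 over those ORFs. PRE9 was at -1.75 and PRE1 at -1.79, inside the range of their rings, which ran from -2.39 to -1.66 for the alpha and from -2.40 to -1.35 for the beta subunits. The SD over the 34 members was 0.34, against 0.49 over the whole ORFs, and the SD over all ORFs was smaller there too (1.17 against 1.52). RPN4 remained the highest, at -1.06. This measure was chosen after the profiles had been seen.

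The rise toward the 3′ end seen at PRE9 and PRE1 was rare in the family. Their log2 difference beyond the midpoint was more than 2-fold above that before it, and they were the 2 members of 34 for which this held, where 27.2% of the 5163 ORFs with reads on both sides showed it. The median of the value beyond the midpoint minus that before it was 0.05 for the members and 0.27 for those ORFs. Of the 415 segments that touch a member ORF, 12 were higher in trf4Δ and none more than 4-fold. They fell in 6 genes: PRE9, PRE1, RPN4, RPT5, RPT6 and RPN12. The last segment of RPT5, centred 1320.5 bp from the start codon, had 77.9 reads in wild type and 166 in trf4Δ.

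**Figure D4:**
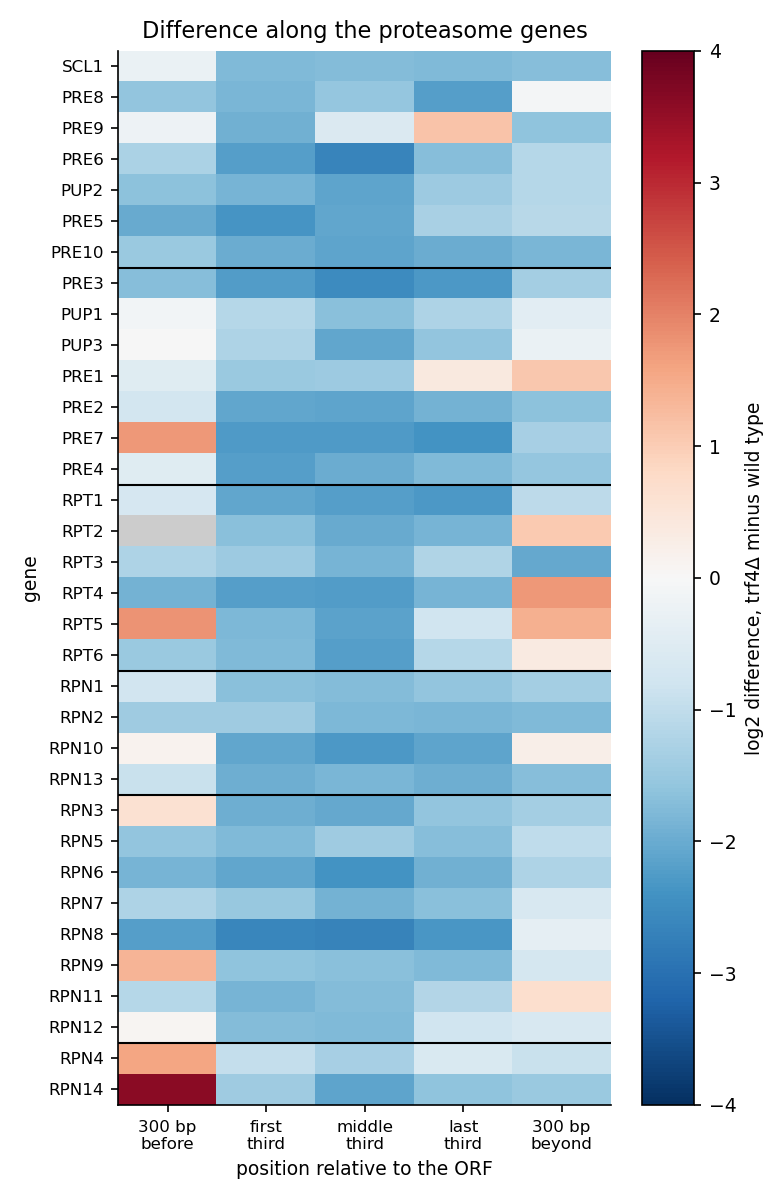
Log2 difference (colour, trf4Δ minus wild type) for each of the 34 genes in the 300 bp before the start codon, in 3 equal parts of the ORF and in the 300 bp beyond the stop codon, with grey for a window of fewer than 3 reads. Blue fills the ORF of almost every gene, the last part of PRE9 (1.14) and PRE1 (0.39) is red, and the darkest red is the window before RPN14 (3.62).

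The DNA before the genes differed from the ORFs. In the 300 bp before the start codon, which includes the 5′ leader of the mRNA, the median log2 difference over the 33 members with at least 3 reads in each library was -0.75, against -0.34 over the 6133 ORFs with such reads, and it turned to 0.22 with the median ORF set to 0. Segments were placed in this window by their centre, so it can hold reads from the first bases of the ORF. In 8 of the 33 the window had more reads in trf4Δ, where 42.9% of ORFs had. One member, RPN14, was more than 4-fold higher there, where 15.4% of ORFs were. Its window had 37.6 reads in wild type and 464 in trf4Δ (3.62, interval 3.07 to 4.23), while the RPN14 ORF was lower in trf4Δ.

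Smaller excesses in trf4Δ stood before RPT5, PRE7, RPN4 and RPN9. The window of RPT5 had 335 reads in wild type and 1163 in trf4Δ (1.80), and that of PRE7 had 132 and 440 (1.74). RPN9 had 302 and 773 (1.35). At RPN8 the same window was lower in trf4Δ, with 4150 and 896 reads (-2.21), most of them in the segment that spans the start codon (3511 and 713 reads) and so lies partly in the ORF. RPT2 was left out of these counts because its window had 2 reads in wild type, before scaling, and 15 in trf4Δ. The RPT5, PRE7 and RPN9 ORFs, like that of RPN8, were lower in trf4Δ, so the window and the ORF did not always go the same way.

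No member ORF overlapped a CUT called with the 4-fold rule, where 19.6% of ORFs did, although PRE9 and PRE1 did with the median ORF set to 0. In the 500 bp before the start codon, 8 of 34 members had a CUT, where 25.4% of ORFs did. These were PRE9, RPT5, RPN2, RPN3, RPN9, RPN12, RPN4 and RPN14. The strongest by fold was that before RPN9, of 700 bp (chromosome IV, 1321301 to 1322000), with 196 reads in wild type and 2654 in trf4Δ, 13.5-fold higher. It covered YDR426C, an ORF whose start lies 199 bp from that of RPN9 on the other strand and which was itself higher in trf4Δ (3.81), and reached SNX41. RPN9 was lower, 196 bp away.

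The CUT before PRE9 covered 800 bp (chromosome VII, 760401 to 761200) at the 3′ end of CAF130, and had 400 reads in wild type and 3790 in trf4Δ. That before RPN14, of 400 bp in CDH1, had 91.4 and 927 reads. Before RPN12 a CUT of 500 bp ended 91 bp from the start codon, with 390 and 2815 reads, and overlapped no ORF. These neighbours show that a region up to 13.5-fold higher in trf4Δ lay within 200 bp of RPN9, and others close to RPN12 and RPN14, which were lower.

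Of the remaining CUTs before members, that of RPT5 (300 bp) had 316 reads in wild type and 1916 in trf4Δ and overlapped no ORF, that of RPN2 (400 bp, in SER33) had 142 and 1030, and that of RPN3 (400 bp, in GPA2) had 206 and 921. RPN4 lay between CUTs in OSH2, 495 bp before its start (1998 and 15030 reads), and in GPM2, 309 bp beyond its stop (1102 and 7435 reads). PRE10 had one 556 bp before its start (543 and 5990 reads), while PRE8 and RPT4 had one beyond the stop, in UTP14 (73.9 and 366 reads) and HNT3 (133 and 1065 reads). A start on the other strand within 1000 bp was found for 20 members. Besides YDR426C, the neighbours of this kind that overlapped a CUT were NOP14, across from RPN5, with 397 and 1139 reads (1.52), and YOR262W, across from RPN8, with 948 and 2767 (1.55).

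Genes that work with the proteasome were compared through lists written with earlier results of these data known. The 9 associated proteins and activators were all more than 2-fold lower in trf4Δ, where 49.0% of all ORFs were, with a median of -1.68. Among them were BLM10, the alternative cap of the core (7733 and 2416 reads, -1.68), UBP6, the deubiquitinase of the base (2076 and 567, -1.87), and STS1, which helps localise proteasomes (1974 and 455, -2.12). Of the 16 genes for ubiquitin and its delivery, 13 were more than 2-fold lower, beside the same 49.0% of all ORFs, with a median of -1.44. UBI4, the polyubiquitin gene, had 10693 and 2550 reads (-2.07), and NPL4, a cofactor of Cdc48, had 1876 and 3374 (0.85), with a CUT in the ORF and a value of -1.60 before the midpoint. UBR1, a ubiquitin ligase of the N-degron pathway, also overlapped a CUT and was at 0.05 (2767 and 2862 reads).

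The 9 assembly chaperones were the most spread of these lists, with a median of -1.21 and an SD of 1.06. More than 2-fold lower were 6 of the 9, beside 49.0% of all ORFs. UMP1, which matures the core, had 11831 reads in wild type and 2222 in trf4Δ (-2.41), and TMA17, a chaperone of the base, had 73709 and 15657 (-2.24). NAS2, another base chaperone, was at the opposite end with 5002 and 9173 reads (0.87). Its value was 0.07 before the midpoint of the ORF and 1.54 beyond it. The spread of the chaperones was thus larger than that of the 32 subunit genes (SD 0.48), but smaller than that of all ORFs (SD 1.52). RPN14, also an assembly chaperone, was counted with the members and not in this list. Of the 5 transcription activators, which include RPN4, 3 were more than 2-fold lower (median -1.46), where 49.0% of all ORFs were.

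Of the 16 subunits and coactivators of the anaphase-promoting complex, 10 were more than 2-fold lower (median -1.34), beside 49.0% of all ORFs. AMA1, the meiosis-specific coactivator, had 39493 and 10050 reads (-1.97), CDC26 had 4533 and 959 (-2.24) and APC9 had 3360 and 720 (-2.22), whereas the coactivator CDC20, which overlapped a CUT, had 694 and 992 (0.52) and SWM1 had 3940 and 4909 (0.32). The 10 genes of the exosome core, another complex of fixed composition, had a median of -1.69, with 8 more than 2-fold lower and 2 more than 4-fold lower. The 137 cytosolic ribosomal protein genes had a median of -1.07, with 74 more than 2-fold and 23 more than 4-fold lower, beside 49.0% and 10.6% of all ORFs. Over whole ORFs the proteasome genes had the lowest median of the lists compared, with the exosome core and the associated proteins next. Before the midpoint the exosome core was lower, with a median of -1.97 and 5 of 10 genes more than 4-fold lower, against -1.90 and 14 of 34 for the proteasome. With 1 library per genotype these differences between lists were not tested.

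**Figure D5:**
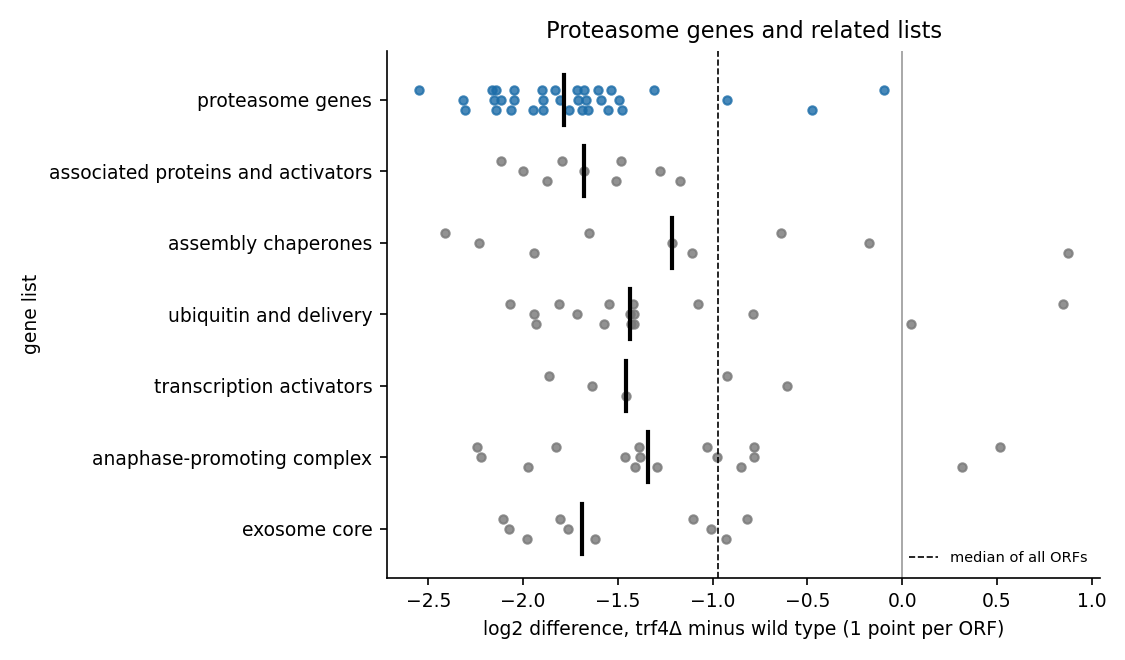
Log2 difference between the libraries (horizontal axis, trf4Δ minus wild type) for each ORF of the proteasome and of 6 related lists, with the median of each list as a black bar and the median of all ORFs as a dashed line. The proteasome genes have the lowest median (-1.78), followed by the exosome core (-1.69) and the associated proteins and activators (-1.68), and RPN4 appears in the proteasome and in the activators.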

How the data were processed

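Per the labels and the paper, RNA bound to TAP-tagged Cbc2 was copied into cDNA with random hexamers, without keeping strand, and sequenced. The authors mapped the reads with Bowtie (0.12.7 in their processing notes, which also name Trim Galore 0.3.5) to SGD1.01 or SK1 and counted them in SeqMonk. They deposited log2 read counts per ORF, with wild type scaled by 1.34, and log2 read counts per 100 bp segment without scaling. In these deposited log2 values 0.9 stands in for a count of 0.

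Raising 2 to each value gave back reads, which for wild-type ORFs under 1000 reads were whole within 0.000717. The 139 segments of 37S pre-rRNA were left out, and wild-type segments were scaled by 1.34 to equal totals. CUTs (1575) were joined, by the rule in the study's published script, from segments more than 4-fold higher in trf4Δ with starts up to 300 bp apart, 300 bp or longer, with mean log2 trf4Δ reads above 6, so that a CUT may span segments under 4-fold, whereas the legend of the study's CUT list speaks of consecutive bins. All members, the deleted gene, the 5 genes with the lowest and the 5 with the highest difference over the proteasome, ubiquitin and anaphase-promoting complex lists together (markers, exosome and ribosomal genes not counted), and neighbours with a CUT were named; other list genes were named for their role after their values were seen. Members and lists were chosen with earlier results of these data known. R64 and SGD1.01 differ in coordinates, so R64 was used only for names, promoters and words. No 30-base word of a member ORF occurred elsewhere in R64. ADC17 and TMA17 are names of 1 gene, counted once. The steps were tested on simulated data. Software was scipy 1.17.1, pandas 2.3.3, matplotlib 3.10.9 and numpy 2.4.6 under Python 3.11.15. Alternatives were other totals, inner segments, parts of the ORF, wider windows and an 8-fold rule.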

Additional observations from a re-analysis of the deposited data

How the results depend on the processing

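No paired analysis was possible because there was 1 library per genotype, and for the same reason no library could be left out. The median log2 difference of the members (-1.78) was -0.81 with the median ORF set to 0, -1.67 with totals without the 6 U1 snRNA segments (15.5% of wild-type and 21.8% of trf4Δ reads) and -1.90 before the midpoint of the ORF, an alternative chosen after seeing the data. It moved by less than 0.1 beyond the midpoint (-1.81), inside segments free of other ORFs (-1.77), without RPN4 and RPN14 (-1.82), without PRE1, PRE9 and RPN4 (-1.83, also chosen after seeing the data), and, since every member passed and none touched a segment more than 4-fold higher, it was -1.78 without a read minimum and without such ORFs. With the median ORF set to 0, 0 members were more than 4-fold lower (11 before) and 11 more than 2-fold lower (31 before), and PRE9, PRE1 and RPN4 were above 0. Without U1, 8 members were more than 4-fold lower and PRE9 was above 0. The median log2 level was 13.18 in wild type and 11.42 in trf4Δ from segments inside the ORFs, against 12.79 and 10.99 from the ORF table, and the cause was not tested. At SCL1 the 7 segments inside the ORF held 11046 wild-type reads before scaling, more than the 9738 of the whole ORF. Sums over segments therefore cannot be read as numbers of separate reads. The median before the start codon (-0.75) was -0.42 over 500 bp and reversed to 0.22 with the median ORF set to 0. The windows more than 4-fold higher rose from 1 to 5 over 500 bp (PRE9, RPT2, RPN3, RPN9 and RPN14) and to 5 with the median ORF set to 0 (PRE7, RPT5, RPN9, RPN4 and RPN14). With the median ORF set to 0, 2 member ORFs (PRE9 and PRE1) overlapped a CUT, and with an 8-fold rule 4 members (PRE9, RPN9, RPN12 and RPN14) had one within 500 bp before the start. For single members all 34 stayed lower in trf4Δ inside segments free of other ORFs and before the midpoint of the ORF, and 32 beyond it, the exceptions being PRE9 (0.77) and PRE1 (0.06).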

Other observations

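Outside the family, 46 genes of R64 held the letters GGTGGCAAA in the 300 bp before the start codon, and in 20 of them a match began between 80 and 190 bases before it, the stretch that also held the matches of the 27 members. Both strands were scanned, so an element between divergent genes can be counted for both. The 46 include PMT1 and NOP14, whose starts lie 364 and 338 bp from those of RPN6 and RPN5, members that hold the element. How many of the 46 share an element with a member was not counted. Of the 46 genes, 45 passed the read minimum. Their median log2 difference was -1.38, and 29 (64.4%) were more than 2-fold lower in trf4Δ and 2 more than 4-fold lower. The 5617 other ORFs with neither membership nor the element had a median of -0.97, and 48.9% were more than 2-fold lower. At 4-fold the order was the other way, since 576 of these 5617 ORFs were more than 4-fold lower.

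Among the lists, the element stood before UBI4 (-2.07), UBA1, the ubiquitin-activating enzyme (-1.54), CDC48, the segregase that extracts ubiquitylated proteins (-1.72), ECM29, a proteasome-associated protein (-1.51), DOC1, a subunit of the anaphase-promoting complex (-1.38), and YAP1, the activator of the oxidative stress response (-1.64). The match nearest the start codon began 36 bases before it at DOC1 and 46 at YAP1, outside the stretch of 80 to 190 bases. At UBI4, UBA1, CDC48 and ECM29 it began inside that stretch. None of the 10 exosome core genes and none of the 15 meiotic markers had the element, beside 1.22% of all protein-coding genes. The assembly chaperones had no match of the 9 letters and 2 of the 7-letter core, which stood before 4.91% of all protein-coding genes.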
